A study of Sus scrofa with 12 samples.

Results

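The pluripotency factors are the transcription factors and RNA-binding proteins that hold stem cells in an undifferentiated state, and their messenger RNA levels were followed while porcine induced pluripotent stem (iPS) cells were driven towards endothelium. The set held 10 genes, POU5F1, NANOG, SOX2, LIN28A, LIN28B, SALL4, KLF4, ESRRB, ZFP42 and UTF1, which were looked up by pig gene symbol among the 19681 Ensembl genes of the expression files. Symbols led to 5 of the 10 genes: NANOG (ENSSSCG00000040403), LIN28A (ENSSSCG00000003557), LIN28B (ENSSSCG00000037612), KLF4 (ENSSSCG00000005437) and ESRRB (ENSSSCG00000002388). POU5F1, SOX2, ZFP42 and UTF1 were not matched to an identifier and SALL4 had an identifier without a value, so these 5 genes are not analysed here.

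The study grew iPS cells on Matrigel and induced endothelial cells in steps, with 3 biological replicates (A, B and C) sequenced per group. IEC2 cells had spent 2 days with CHIR99021, an inhibitor of the kinase GSK3β, in medium from which FGF2 and LIF had been withdrawn. IEC4 cells had then received BMP4, FGF2 and VEGF up to day 4, and IEC12 cells had been kept in the endothelial medium EGM-2 with VEGF up to day 12 and were sequenced as the whole culture, without sorting for CD31. AOC, a porcine endothelial cell line, was the reference. Undifferentiated iPS cells are not analysed here, so IEC2 was the earliest stage and the level before induction is not part of any comparison. Values are FPKM as the authors deposited them, that is, fragments scaled for the length of the transcript and for the fragments of the library. The bulk libraries cannot tell fewer cells with a transcript apart from less of that transcript per cell.

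In pluripotent cells OCT4 (the product of POU5F1), SOX2 and NANOG bind and activate each other's genes and many shared targets. KLF4 and ESRRB belong to the circuit of the naive state, and KLF4 is also made in epithelia and in endothelium outside any stem cell. LIN28A and LIN28B block the maturation of let-7 microRNAs, which otherwise repress growth genes such as HMGA2, MYC and the IGF2BP genes.

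The 5 measured factors did not decline together from day 2 onwards. LIN28A and KLF4 were highest at day 4 and had fallen by day 12, NANOG stayed low but was highest at day 12 in 2 of 3 libraries, and LIN28B and ESRRB stayed close to 0 at every stage. At day 12 none of the 5 reached an FPKM of 1 in all 3 libraries, the level used here to describe a factor as persisting. NANOG reached it in 1 library. Of all 19681 genes, 8763 to 9452 reached it in a single IEC12 library.

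**Figure D1:**
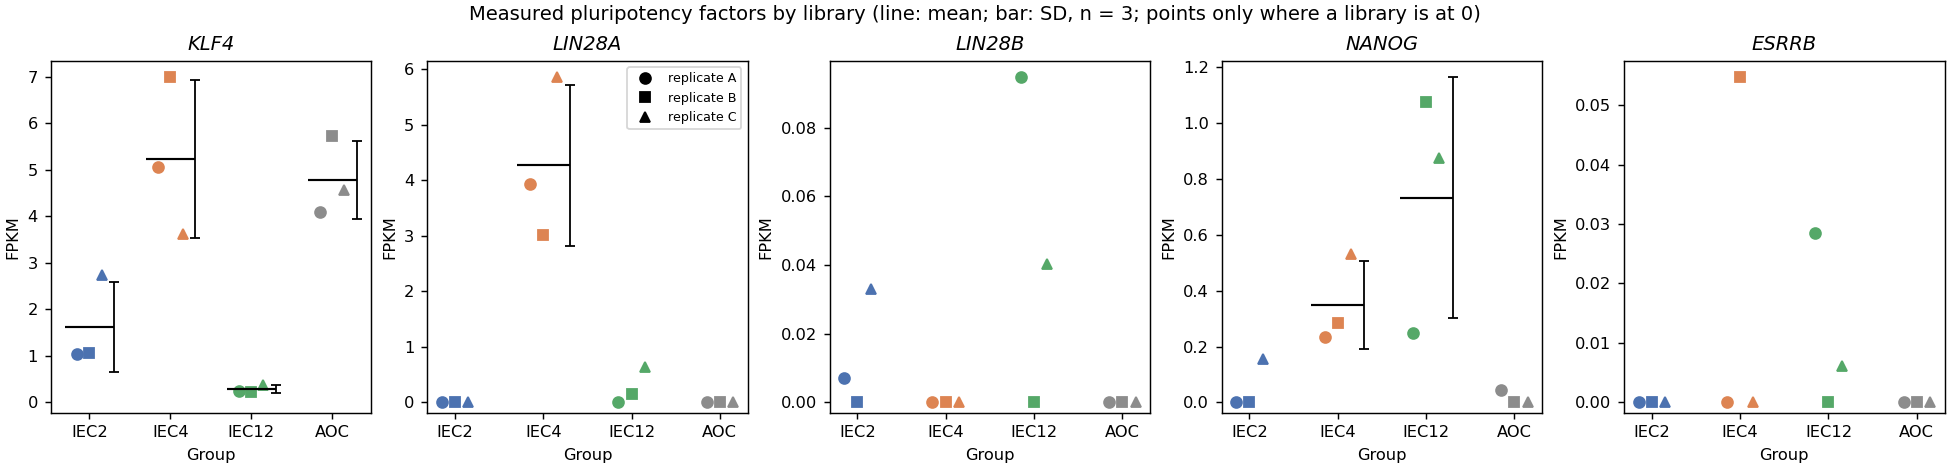
FPKM of KLF4, LIN28A, LIN28B, NANOG and ESRRB (each panel has its own linear axis) in the 3 libraries of IEC2, IEC4, IEC12 and AOC. Symbols are single libraries, and the line and bar are the mean and SD (n = 3) of groups in which no library was at 0. LIN28A and KLF4 have their high points in IEC4, the KLF4 points of AOC overlap those of IEC4, and the LIN28B and ESRRB axes end below 0.1.

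LIN28A is the RNA-binding protein of the let-7 pathway that marks early embryonic cells, and RefSeq places its gene on chromosome 6 from 83806178 to 83818550 (assembly Sscrofa11.1). It was listed at 0 in all 3 IEC2 libraries and in all 3 AOC libraries. At IEC4 its FPKM was 3.94, 3.01 and 5.86 in replicates A, B and C. In IEC12 it was 0, 0.159 and 0.647. IEC4 therefore lay above every library of the other groups without overlap, and LIN28A at day 12 was back under 1 in every replicate. On the log2(FPKM + 1) scale the difference of IEC4 from IEC2 was 2.36 (SE 0.24, n = 3 per group, limma adjusted p = 9.09e-05). The difference of IEC12 from IEC4 was -2.05 (SE 0.24, limma adjusted p = 0.000233). IEC12 and IEC2 differed by 0.31 (limma adjusted p = 0.329), which did not pass, and these 3 comparisons share libraries, so the last is the sum of the other two.

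Among all genes, 37.3% of the 10542 tested were called in IEC4 against IEC2 and 44.2% in IEC12 against IEC4, at an adjusted p under 0.05. LIN28A entered the test only because it reached 1 FPKM in the IEC4 libraries, so a gene admitted this way had to differ. With no filter on low values, where 22.3% and 26.1% of 18415 genes were called, the adjusted p of LIN28A was 0.000524 for the first step and 0.0011 for the second. A gene listed at 0 can be a failed estimate, since the translation factor gene EIF3G, used by every cell, was listed at 0 in 10 of the 12 libraries, and no fold is given for LIN28A against IEC2 or AOC.

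The depth behind these values could be read from the files. Once the relative depth of each library was allowed for, the FPKM values of a gene were whole multiples of 1 step, as single reads would give, in 95.86% of the 10555 genes with values above 0 in all 12 libraries (within 0.02 of a whole step, with up to 5000 step sizes tried per gene). With the lowest value of a gene taken as exactly 1 step, 44.76% of the values of genes peaking between 0.2 and 2 FPKM lay within 0.05 of a whole step, against 10% if evenly spread. In these steps LIN28A stood at 79, 57 and 97 in IEC4 and at 0, 3 and 11 in IEC12. A count of 3 corresponded to an FPKM of 0.170 to 0.187 in IEC2 and of 0.199 to 0.205 in AOC. A true LIN28A level below that could have been listed at 0 there. IEC12 replicate A, where LIN28A was at 0, had the fewest steps in total, 8901479 against 13325046 to 19428104 in the other libraries.

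KLF4 is the zinc-finger factor used with OCT4, SOX2 and MYC to make iPS cells, and its gene lies on chromosome 1 from 248604817 to 248609574. It was measured in every library. In IEC2 its FPKM was 1.05, 1.06 and 2.73. In IEC4 it was 5.06, 7.0 and 3.62. In IEC12 it was 0.238, 0.232 and 0.387. Replicates of the 3 stages did not overlap, with IEC4 highest and IEC12 lowest, and replicate C of IEC2 lay above the other two IEC2 libraries. KLF4 rose from 1.62 ± 0.969 (SD, n = 3) in IEC2 to 5.23 ± 1.70 (SD, n = 3) in IEC4, a log2 fold change of 1.28 (SE 0.28, limma adjusted p = 0.00613). By IEC12 it had dropped to 0.286 ± 0.0875 (SD, n = 3), a log2 fold change of -2.24 against IEC4 (SE 0.28, limma adjusted p = 0.000302), and its mean was 5.46% of that in IEC4.

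In AOC the FPKM of KLF4 was 4.09, 5.72 and 4.56. These values overlapped with IEC4 and lay above every IEC2 and IEC12 library. IEC4 and AOC were not tested against each other, while IEC12 held 5.96% of the AOC mean. The log2 fold change of IEC12 against AOC was -2.16 (SE 0.26, limma adjusted p = 1.95e-05), in a comparison where 58.5% of 11053 genes were called. Against IEC2 the day-12 cells were lower by a log2 fold change of -0.97 (limma adjusted p = 0.0194), with 43.6% of genes called, 24.2% higher and 19.3% lower. This last call was lost without IEC2 replicate C (-0.68, limma adjusted p = 0.064) and without IEC12 replicate B (-0.94, limma adjusted p = 0.062).

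NANOG, the homeodomain factor of the core circuit, had low values that were highest late. Its FPKM was 0, 0 and 0.155 in IEC2. In IEC4 it was 0.236, 0.286 and 0.530. In IEC12 it was 0.248, 1.07 and 0.874. The IEC4 and IEC12 libraries all lay above the IEC2 libraries, and IEC12 overlapped IEC4 through its shallowest library, replicate A. In AOC NANOG stood at 0.0462 in replicate A and at 0 in the other two. The values amounted to 7, 8 and 13 steps in IEC4, 4, 30 and 22 in IEC12, 4 in IEC2 replicate C and 1 in AOC replicate A.

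NANOG failed the filter of 1 FPKM in 3 libraries and has no value in the main test. Without the filter, IEC12 was higher than IEC2 by 0.69 on the log2(FPKM + 1) scale (limma adjusted p = 0.0305, 24.3% of genes called) and higher than AOC by 0.74 (limma adjusted p = 0.005, 38.2% of genes called). Neither single step passed, with 0.36 from IEC2 to IEC4 (limma adjusted p = 0.221) and 0.33 from IEC4 to IEC12 (limma adjusted p = 0.235). RefSeq lists NANOG at 2 places, on chromosome 1 from 169064134 to 169065292 and on chromosome 5 from 62931642 to 62939086, so reads may be shared between copies and its level is uncertain.

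LIN28B, the second LIN28 gene, lies on chromosome 1 from 71173291 to 71296131. Its FPKM was 0.00712, 0 and 0.0329 in IEC2 and 0.0946, 0 and 0.0404 in IEC12, and it was listed at 0 in all IEC4 and AOC libraries. The stages overlapped, and the highest value amounted to 9 steps. The day-4 peak of LIN28A thus had no counterpart in LIN28B. ESRRB, an orphan nuclear receptor on chromosome 7 from 99511135 to 99699478, was listed at 0 in every IEC2 and AOC library, had an FPKM of 0.0547 in IEC4 replicate B, and was at 0.0285, 0 and 0.00608 in IEC12. Its largest value amounted to 10 steps in 1 library while the other two IEC4 libraries were at 0. Neither LIN28B nor ESRRB passed in any comparison without the filter, with limma adjusted p from 0.131 to 0.847.

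The spread over the 3 stages was also tested for each gene alone, with an exact permutation test over all 1680 assignments of the 9 IEC libraries to stages, one that was chosen after the values were seen and was adjusted over the 5 genes. KLF4 reached the smallest p that this test allows, 0.003571 (exact permutation, adjusted p = 0.01786). LIN28A had p = 0.01429 (exact permutation, adjusted p = 0.03571) and NANOG p = 0.04286 (exact permutation, adjusted p = 0.07143), so NANOG did not pass after adjustment. LIN28B had p = 0.1429 and ESRRB p = 0.6786 in the same exact permutation test.

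The whole steps, read as counts, were also tested with voom in limma, a choice made after the values were seen, under which 35.8% of 12847 genes were called in IEC4 against IEC2, 38.1% in IEC12 against IEC4, 36.1% in IEC12 against IEC2 and 53.6% of 13283 in IEC12 against AOC. LIN28A passed in both steps (limma adjusted p = 0.000694 and 0.00494), as did KLF4 (limma adjusted p = 0.0058 and 0.000866). NANOG was higher in IEC12 than in IEC2 (log2 fold change 4.10, limma adjusted p = 0.0208) and than in AOC (4.41, limma adjusted p = 0.00287). Neither of its single steps passed (limma adjusted p = 0.0752 and 0.361). Genes with few steps were left out of this test too. NANOG was admitted only through IEC4 replicate C and IEC12 replicates B and C (13, 30 and 22 steps). LIN28A was admitted through IEC4 (79, 57 and 97 steps). A gene admitted this way tends to differ, so these results are no separate support.

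The genes most like LIN28A in profile over the 9 IEC libraries were HAND1 (Pearson r = 0.994), SLC22A18 (r = 0.989) and ZNF185 (r = 0.989), among 1994 genes ranked on log2(FPKM + 1). HAND1 encodes a factor of early mesoderm, amnion and trophoblast, and like LIN28A it was listed at 0 in IEC2 and AOC and measured 6.59, 6.38 and 9.98 FPKM in IEC4. The 3 nearest to KLF4 were TMEM38A (r = 0.982), RHOBTB3 (r = 0.975) and ENPP2 (r = 0.972). These correlations describe points that share 3 stages and the library depths.

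The genes around LIN28 were described with a list of 16 growth genes and let-7 pathway components, of which 14 were found and 12 tested, LIN28A included. From IEC2 to IEC4, 6 rose and 0 fell, where 24.8% of all genes tested rose and 12.5% fell, with a median log2 fold change of 0.55 against 0.20 over all genes tested. From IEC4 to IEC12, 0 rose and 8 fell, where 17.3% of all genes rose and 26.9% fell, with a median of -1.98 against -0.15. These medians rest in part on LIN28A, MYC and ARID3B, which among the IEC stages reached 1 FPKM only in IEC4. Leaving out IEC4 replicate A, B or C reduced the list to 9 tested genes, LIN28A not among them, of which 3, 3 and 2 rose in the first step, with medians of 0.19, 0.41 and 0.16 against 0.19, 0.17 and 0.17 over all genes. In the second step 5 fell in each case, with medians of -0.94, -0.90 and -0.95. Without the filter the medians of the 14 genes were 0.32 and -1.42, against 0.07 and -0.04 over all genes.

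MYC, the growth-promoting factor, measured 0, 0 and 0.131 FPKM in IEC2, 2.40, 9.64 and 17.5 in IEC4, and 0, 0 and 0.160 in IEC12. Its profile over the stages had the same high point as that of LIN28A, but unlike LIN28A it was far higher in AOC, at 47.2 to 80.8 FPKM. On the log2(FPKM + 1) scale MYC differed by 3.07 in the first step (SE 0.49, limma adjusted p = 0.0011) and by -3.06 in the second (SE 0.49, limma adjusted p = 0.00109). MYC too entered the test only through IEC4, and without the filter its limma adjusted p was 0.0054 and 0.0052. CCND1, which encodes cyclin D1, rose from 0.398 ± 0.319 to 7.85 ± 2.21 FPKM (SD, n = 3) and then dropped to 1.36 ± 0.528, with AOC at 101.4 ± 18.2. IGF2BP1, an mRNA-binding protein of fetal cells, went from 4.73 ± 1.24 to 12.97 ± 1.05 and 2.09 ± 1.42 FPKM (SD, n = 3). Its first step (1.31, limma adjusted p = 0.0162) was lost without IEC2 replicate A (1.12, limma adjusted p = 0.0625), without IEC4 replicate C (1.25, limma adjusted p = 0.0506) and with a pseudocount of 0.1 (1.47, limma adjusted p = 0.0638). HMGA1, a chromatin protein of dividing cells, measured 57.4 ± 11.8 FPKM in IEC2 and 67.8 ± 13.8 in IEC4 (SD, n = 3, limma adjusted p = 0.653) and fell to 9.98 ± 6.79 in IEC12 (log2 fold change -2.81, limma adjusted p = 0.000453).

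KLF4 was set beside its relatives, since KLF2, KLF5 and KLF17 can stand in for it in some pluripotent cells. Of 34 relatives of the SOX, KLF, ESRR, POU, SALL and ZFP42 families, 26 were found and 14 tested. From IEC2 to IEC4, 6 rose and 6 fell (median 0.43 against 0.20 over all genes), beside 24.8% higher and 12.5% lower among all genes, and without IEC2 replicate B or C 6 rose and 3 fell of 13 tested. From IEC4 to IEC12, 0 rose and 6 fell (median -0.39 against -0.15), beside 17.3% and 26.9% of all genes. With libraries scaled by median-of-ratios, which moved the median of all genes to -0.01 in the first step and 0.04 in the second, the second step had 2 higher and 6 lower.

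**Figure D2:**
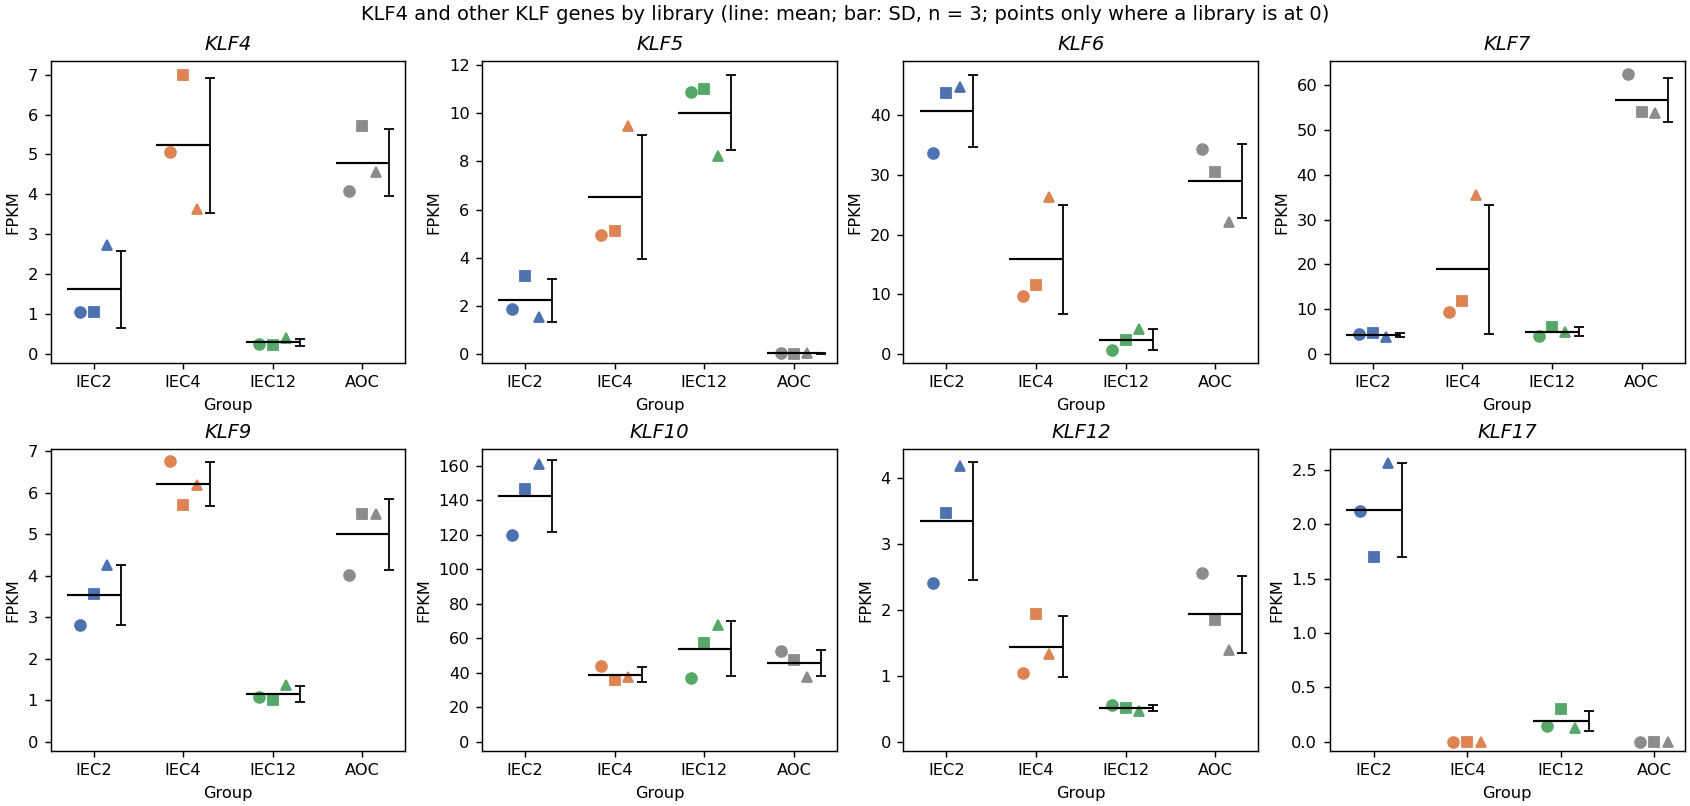
FPKM (linear axis, one per panel) of KLF4 and of KLF5, KLF6, KLF7, KLF9, KLF10, KLF12 and KLF17 in the 3 libraries of each group; circles, squares and triangles are replicates A, B and C, and the line and bar are the mean and SD (n = 3) where no library was at 0. KLF4, KLF7 and KLF9 have their stage maximum in IEC4, KLF5 in IEC12, and KLF6, KLF10, KLF12 and KLF17 in IEC2.

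KLF9 shared the order of KLF4 over the stages, with 3.54 ± 0.727, 6.21 ± 0.533 and 1.16 ± 0.193 FPKM (SD, n = 3) in IEC2, IEC4 and IEC12. Its first step (0.68, limma adjusted p = 0.016) was lost without IEC2 replicate A (0.56, limma adjusted p = 0.0523), without IEC4 replicate A (0.62, limma adjusted p = 0.0547) and with median-of-ratios scaling (0.47, limma adjusted p = 0.0554). KLF7 was likewise highest in IEC4, at 9.40, 11.8 and 35.5 FPKM, where replicate C stood apart, and measured 4.28 ± 0.414 in IEC2 and 4.96 ± 0.942 in IEC12 (SD, n = 3).

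KLF17, a factor of the naive human epiblast, moved the other way from KLF4 from IEC2 to IEC4, while both were lower in IEC12 than in IEC2. It measured 2.12, 1.70 and 2.56 FPKM in IEC2, was listed at 0 in all 3 IEC4 libraries and stood at 0.145, 0.302 and 0.130 in IEC12, a difference of -1.64 on the log2(FPKM + 1) scale in the first step (SE 0.16, limma adjusted p = 7.03e-05). KLF17 reached the filter only through IEC2, and without the filter its limma adjusted p was 0.000131. KLF5, which acts with KLF4 in stem cells and in epithelia, rose from 2.22 ± 0.905 to 6.51 ± 2.58 FPKM (SD, n = 3, log2 fold change 1.21, limma adjusted p = 0.00759). At IEC12, with KLF4 at its lowest, KLF5 was at 10.03 ± 1.56 FPKM (SD, n = 3), which overlapped IEC4 and did not pass against it (0.60, limma adjusted p = 0.104). KLF5 in AOC was at 0.0323 ± 0.0183 FPKM (SD, n = 3), so the order of KLF4 and KLF5 in IEC12 was the opposite of that in AOC.

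Other relatives were highest at day 2. KLF10, an early TGF-β response gene, fell from 142 ± 20.7 to 39.0 ± 4.34 FPKM (SD, n = 3, log2 fold change -1.84, limma adjusted p = 0.000199). KLF15, KLF6 and KLF12 were lower in both steps. KLF15 went from 4.52 ± 0.715 to 1.91 ± 0.527 and 0.562 ± 0.291 FPKM (SD, n = 3). KLF6 went from 40.7 ± 6.07 to 15.8 ± 9.12 and 2.38 ± 1.72 FPKM (SD, n = 3), with its first step (limma adjusted p = 0.027) lost without IEC2 replicate B or C or IEC4 replicate A or B (limma adjusted p 0.0748 to 0.0996), with a pseudocount of 0.1 (limma adjusted p = 0.0717) and with no filter (limma adjusted p = 0.0637). KLF12 went from 3.35 ± 0.893 to 1.44 ± 0.460 and 0.517 ± 0.0455 FPKM (SD, n = 3), with its second step (limma adjusted p = 0.0273) lost without IEC4 replicate B or C or any IEC12 replicate (limma adjusted p 0.0517 to 0.103) and with no filter (limma adjusted p = 0.0516). SALL2, a relative of SALL4, rose from 1.57 ± 0.678 to 5.31 ± 1.48 FPKM (SD, n = 3, limma adjusted p = 0.00262) and was at 2.998 ± 0.175 in IEC12.

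The wider pluripotency network was taken as 40 genes besides the factors, of which 31 were found and 14 tested. The list overlaps that of the relatives, and KLF5, KLF17 and SALL2 were tested and counted in both. The list did not move in 1 direction in the first step, where 5 rose and 4 fell (median 0.22 against 0.20 over all genes), beside 24.8% and 12.5% of all genes. In the second step 1 rose and 6 fell (median -0.43 against -0.15), beside 17.3% and 26.9% of all genes. The medians depended on single libraries, with 0.01 in the first step without IEC4 replicate B (0.17 over all genes) and, in the second, -0.10 without IEC4 replicate A and -0.15 without IEC4 replicate B (-0.14 and -0.12 over all genes). Scaling by median-of-ratios gave 4 higher and 4 lower of 13 in the first step, with a median of -0.01, and 3 higher and 5 lower of 13 in the second, and the second step also had 3 higher and 5 lower without IEC4 replicate C. Of the 31 genes, 10 had at least 1 FPKM in all 3 IEC12 libraries (among them OTX2, ETV5, KLF5 and DNMT3B), against 11 in IEC2 and 13 in IEC4 and 1, ETV4, in AOC. None of the 5 measured factors did so at day 12, and many of the genes that did are also made in neural and other lineages. The share of all genes with 1 FPKM in all 3 libraries was not computed. In single IEC12 libraries 10 to 12 of the 31 reached it, beside 8763 to 9452 of all 19681 genes. In single IEC2 libraries 11 to 13 did, beside 8829 to 9484 of all genes, and in IEC4 13 to 15, beside 9909 to 10467. In AOC the range was 1 to 2, beside 8357 to 8638.

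**Figure D3:**
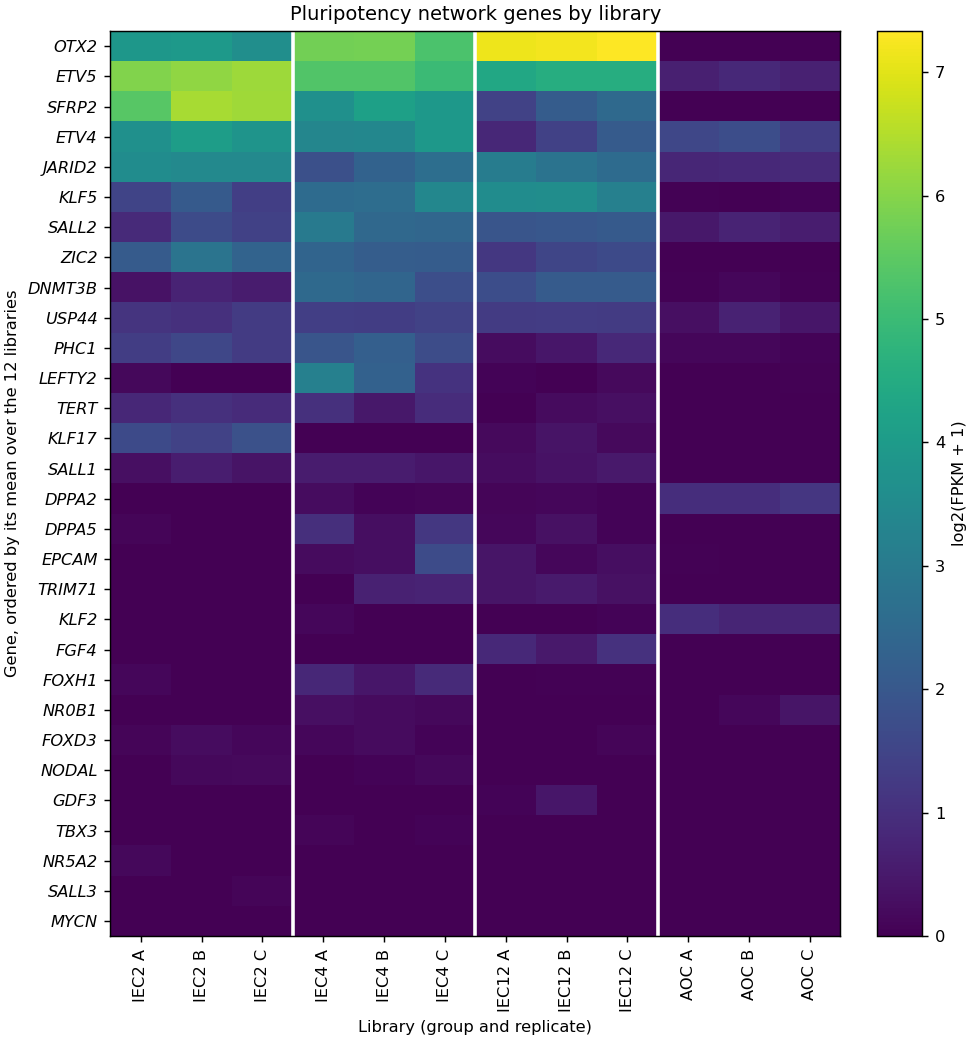
Heat map of log2(FPKM + 1) for 30 of the pluripotency network genes found, 1 row per gene ordered by mean level and 1 column per library, grouped as IEC2, IEC4, IEC12 and AOC (n = 3 each). OTX2 is brightest in IEC12, ETV5 and SFRP2 in IEC2, and LEFTY2 in IEC4, and most rows are dark in AOC.

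OTX2, a factor of the primed epiblast and the anterior neural plate, rose in both steps, from 13.1 ± 1.65 to 48.4 ± 9.49 and 149 ± 10.01 FPKM (SD, n = 3), with log2 fold changes of 1.79 and 1.62 (limma adjusted p = 5.26e-05 and 0.000112), and was listed at 0 in AOC. Its course was the reverse of KLF4 and LIN28A after day 4. DNMT3B, the de novo DNA methyltransferase of early embryos, rose from 0.478 ± 0.190 to 3.75 ± 1.18 FPKM (SD, n = 3, limma adjusted p = 0.000537) and was at 2.97 ± 0.575 in IEC12. LEFTY2, an inhibitor of NODAL signalling, peaked at IEC4 as LIN28A did. Its FPKM there was 8.08, 3.83 and 1.12, against values of 0 to 0.132 in IEC2 and IEC12. The LEFTY2 steps were 2.13 and -2.10 on the log2(FPKM + 1) scale (limma adjusted p = 0.00343 and 0.00339), for a gene that reached the filter only through IEC4, and without the filter the limma adjusted p was 0.012 and 0.0119.

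SFRP2, a secreted WNT modulator, and ETV5, an FGF-responsive ETS factor, fell in both steps. SFRP2 went from 67.0 ± 22.0 to 14.3 ± 2.68 and 3.28 ± 1.5 FPKM (SD, n = 3), and ETV5 from 68.2 ± 7.77 to 36.7 ± 4.84 and 21.7 ± 1.37. Adjusted p from limma was 0.000849 and 0.00147 for SFRP2 and 0.00132 and 0.00333 for ETV5. ETV4, its close relative, fell in the second step from 10.9 ± 2.62 to 1.92 ± 1.30 FPKM (SD, n = 3, limma adjusted p = 0.000696), and JARID2, a partner of the Polycomb complex, fell in the first from 10.3 ± 0.551 to 3.91 ± 1.40 (SD, n = 3, limma adjusted p = 0.0027). Against AOC, 10 of the 14 tested network genes were higher in IEC12 and 0 lower (median 1.68 against 0.21 over all genes), where 36.2% of all genes tested were higher and 22.4% lower.

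Some markers of other cell types were also highest at day 4, as LIN28A and KLF4 were. The 12 epithelial, amnion and trophoblast genes found of 13 summed to 343 to 900 FPKM in IEC4, against 16.4 to 24.1 in IEC2, 13.5 to 35.0 in IEC12 and 1.62 to 1.96 in AOC. KRT8, a simple epithelial keratin, made up most of the sum, with 300, 435 and 748 FPKM in the IEC4 libraries, and IEC4 replicate C was highest for the list, for LIN28A and for HAND1 but lowest of the 3 for KLF4. Other genes of the list did not peak in IEC4. GATA3 was highest in IEC12 (mean FPKM 0.0297, 1.90 and 11.7 in IEC2, IEC4 and IEC12). TFAP2A was highest in IEC2 (2.59, 1.10 and 1.55), and CDX2 was listed at 0 in every library. The list therefore does not name a cell type, and the part of cells with such markers in the LIN28A and KLF4 values was not tested.

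The endothelial label of the day-12 culture was also set against its markers. The 15 endothelial genes found of 21 summed to 0.613 to 0.958 FPKM in IEC12, 2.24 to 3.86 in IEC4, 3.51 to 6.18 in IEC2 and 356 to 477 in AOC, and CDH5 (VE-cadherin) was listed at 0 in every IEC library. The unsorted IEC12 libraries therefore held hardly any RNA of the endothelial genes found. By flow cytometry, a measure of protein on single cells, the paper found a minority of the day-12 cells to be CD31-positive. PECAM1, the gene of CD31, averaged 0.0620 FPKM in IEC12 and 114 in AOC, and this gap between RNA and protein was not tested. What the factors show at day 12 describes the whole culture and not purified endothelium. The 12 neural genes found of 16 summed to 391 to 418 FPKM in IEC12 and to 37.5 or less in the other groups, and STMN2 alone made up 370 to 397 FPKM of the IEC12 sums. Primitive streak and mesoderm genes (18 of 21 found) summed to 51.3 to 62.8 FPKM in IEC12, 25.5 to 39.3 in IEC4 and 16.5 to 22.2 in IEC2. CDX4 alone made up 39.3 to 44.3 FPKM of the IEC12 sums. PDGFRA and KDR of this list were lower in IEC12 than in IEC2 (means 1.34 against 4.24 and 0.0125 against 2.95). Mesenchymal and smooth muscle genes (12 of 14 found) summed to 91.1 to 104, 70.5 to 79.3 and 95.8 to 129 in IEC12, IEC4 and IEC2. Blood genes (6 of 7 found) summed to 4.33 to 12.0 in the IEC libraries. Some genes of these lists had their highest IEC level in IEC4, as LIN28A and KLF4 did. Among them were COL1A1 (mean FPKM 0.341, 5.59 and 0.0595 in IEC2, IEC4 and IEC12), ACTA2 (0.0979, 3.11 and 0.0874), MAP2 (3.42, 15.3 and 8.91) and PTPRC (0.0165, 2.78 and 1.37). Others of the same lists were lowest in IEC4, among them COL3A1 (93.6, 45.6 and 70.8), SPI1 (6.87, 1.57 and 2.14) and ISL1 (3.93, 0.592 and 5.09). The part of cells with any of these markers in the factors' values was not tested.

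**Figure D4:**
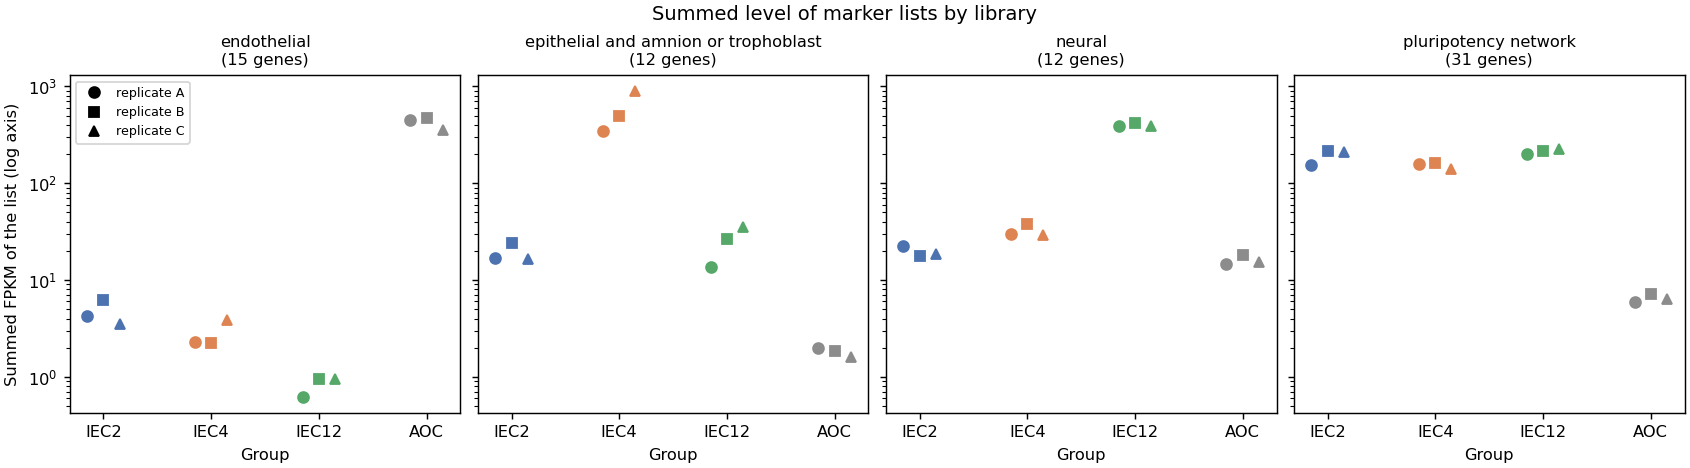
Summed FPKM (log axis) of the endothelial, epithelial and amnion or trophoblast, neural and pluripotency network genes found, by library; circles, squares and triangles are replicates A, B and C. The epithelial sum is highest in IEC4 (343 to 900), the neural sum, nearly all STMN2, in IEC12 (391 to 418) and the endothelial sum in AOC (356 to 477). The pluripotency network sums of the IEC stages lie between 139 and 228 but rest on different genes. OTX2 is at 140 to 160 FPKM in IEC12 and at 11.3 to 14.4 in IEC2. In IEC2 the largest parts are SFRP2 (41.7 to 82.0) and ETV5 (60.2 to 75.8).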

How the data were processed

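RNA was amplified as full-length cDNA by Smart-Seq2, per the labels, and 12 libraries were analysed (IEC2, IEC4, IEC12 and AOC, 3 biological replicates each). The reads were processed in Galaxy, and the authors deposited a table of FPKM values by Ensembl gene for every library. The submitters' processing notes name Bowtie2 2.2.3, TopHat2 2.0.12, Cufflinks 2.2.1 and the build susScr11. Summed FPKM per library was 335976.4 to 457193.7.

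Of 19681 identifiers, 13998 were given a symbol by a table of gene names. Values were analysed as log2(FPKM + 1), which understates changes of low genes, with limma 3.58.1 (R 4.3.3; lmFit, contrasts.fit and eBayes with trend), for genes that reached 1 FPKM in 3 or more libraries. One fit of 9 libraries served the IEC stages, and a second of 12 compared IEC12 with AOC. A call required a Benjamini-Hochberg adjusted p under 0.05 over all genes tested. Exact tests were two-sided. Relative depth (0.668 to 1.23) was estimated from 3673 genes under 0.2 FPKM. Counting floors cover counting error only.

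The members and lists were chosen with earlier results of these data known. The text names all members, the 3 largest called changes per direction, list and step without overlapping replicates, genes called alike in both steps, and the 3 genes nearest each tested member by Pearson r with a log2 range of at least 2. Not every marker gene under this rule is reported, and 1 network gene is left out of the heat map and is not reported by name here. KLF4 relatives in the plots, EIF3G, CDH5, KRT8, STMN2, COL1A1, ACTA2, MAP2 and PTPRC were chosen after their values were seen. So were COL3A1, SPI1, ISL1, GATA3, TFAP2A, CDX2, CDX4, PDGFRA, KDR and PECAM1.

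On simulated data for IEC4 against IEC2 (10542 genes), 89 of 100 genes changed by 2 and 99 of 100 changed by 4 on the log2 scale were called, and 10 unchanged genes. Figures were drawn with matplotlib 3.10.9 in Python 3.11.15. Alternatives were a pseudocount of 0.1, no filter, only the groups compared, a replicate block, median-of-ratios scaling, libraries brought to the same total, limma without trend, the limits of the paper (p and adjusted p under 0.001, absolute log2 fold change above 3) and each replicate left out.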

Additional observations from a re-analysis of the deposited data

How the results depend on the processing

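The signs of LIN28A and KLF4 differences were the same under all alternatives run. Their size depends on the pseudocount: with 0.1 in place of 1, LIN28A differed by 5.40 and -3.97 in the 2 steps, and KLF4 by -3.76 in the second step, -2.04 in IEC12 against IEC2 and -3.67 against AOC, with every call kept. With the limits of the paper, the genes called numbered 124 in IEC4 against IEC2, 99 in IEC12 against IEC4, 129 in IEC12 against IEC2 and 487 in IEC12 against AOC, in place of 3932, 4660, 4592 and 6469, and 0 factors were called in any of these by limma, as no factor differed by more than 3. Without a filter, factors called numbered 2 in place of 1 in IEC12 against IEC2 and in IEC12 against AOC, as NANOG joined KLF4. The same 2 were called in both by voom on whole reads, an alternative chosen after seeing the data, which NANOG entered mainly through IEC12. With each replicate left out in turn, genes called ranged from 2681 to 3266, 3235 to 4744, 3292 to 4287 and 5402 to 6482 in the same order. Factors called ranged from 1 to 2, 1 to 2, 0 to 1 and 1 to 1, against 2, 2, 1 and 1. The first 2 ranges arise because LIN28A fails the filter with 2 IEC4 libraries. Unfiltered, an alternative also added later, it stayed called without any 1 of them (limma adjusted p 0.000891 to 0.00398).

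The replicate letters were not shown to pair libraries, as the mean correlation of same-letter deviations was -0.01, -0.09, 0.16 and -0.27 in the 4 comparisons. In IEC12 against IEC2, 2 of 3 letters correlated best with their own. With the replicate block, genes called numbered 3900, 4569, 4496 and 6303, and factors called 2, 2, 1 and 1. Depth limits NANOG, LIN28B and ESRRB most, which rested on 30 steps or fewer in any library.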
